A study of Mus musculus with 12 samples.

Results

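Peroxisome proliferator-activated receptor gamma (PPARγ, gene Pparg) and 9 genes of lipid droplets and lipid uptake were followed in mouse liver by RNA sequencing and by FAIRE-seq, a formaldehyde method that enriches nucleosome-depleted, accessible DNA. The 10 genes were chosen by name: Pparg, Cidea, Cidec, Plin2, Plin4, Plin5, Cd36, Mogat1, Fabp4 and G0s2. They account for 19 of the 34933 RefSeq transcripts in the expression table, and for 10 of 24910 entries after transcripts of a gene were summed. All animals were wild-type C57BL/6J males. Control mice received standard chow for 28 weeks and had no surgery. Sham mice received a high-fat diet (60 kcal% saturated fat) from 8 weeks of age for 14 weeks, then an operation that handled the stomach without resection, then 14 further weeks of the same diet. VSG mice had the same diet before and after vertical sleeve gastrectomy, in which about 80% of the stomach was removed, and both operated groups took a liquid diet for the first 4 days after surgery. Each group had 2 livers, from which both RNA and FAIRE DNA were prepared. Sham mice therefore differ from Control mice in diet and in surgery, and these cannot be told apart here, whereas VSG and Sham mice differ in the resection.

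PPARγ is a nuclear receptor that pairs with a retinoid X receptor (RXR) and, when bound by fatty acid ligands, switches on genes of fat storage. It is the master regulator of adipocytes and is normally scarce in liver cells, and its level in liver is known to go up in fatty liver. Among its known target genes are the fatty acid transporter Cd36, the lipid-binding protein Fabp4, the droplet-fusion proteins Cidea and Cidec and the monoacylglycerol acyltransferase Mogat1. Perilipins (Plin2, Plin4 and Plin5) coat lipid droplets, and G0s2 inhibits adipose triglyceride lipase, the enzyme that begins droplet breakdown.

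Expression was read as FPKM, fragments per kilobase of transcript, scaled to the library, which is comparable between genes. A gene was tested when its summed FPKM was at least 1 in at least 2 mice. Changes are given on the log2(FPKM + 1) scale, which understates changes of scarce genes, with the error and p-value of limma and adjustment over all 9869 genes tested. Genes at an FDR of 10% were called. All 10 members entered the test, Cidea through Sham and VSG mice only and Mogat1 through Sham mice only. The most common ratio between low FPKM values put the depth of the libraries between 0.676 and 1.56 times that of Control mouse 1. The table lists some transcripts at exactly 0 that should not be: 21 of 102 ribosomal protein transcripts were at 0 in all 6 mice, and 507 of the 4657 genes with at least 10 FPKM in some mouse (10.9%) were at 0 in another. A value of 0 is therefore given as listed, without a mean. Within a group, the 2 mice differed by a median of 1.18-fold over genes in Control, 1.44-fold in Sham and 1.31-fold in VSG mice. A library of whole liver cannot tell more cells of a type from more RNA per cell.

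Pparg was listed at 2.34 and 3.5 FPKM in the Control mice, 11.1 and 2.58 in Sham, and 6.75 and 8.73 after VSG. Both VSG mice lay above both Control mice, while Sham mouse 1 lay above both and Sham mouse 2 lay between them. The means were 2.92 ± 0.82 (SD, n = 2), 6.82 ± 6 and 7.74 ± 1.4 FPKM. The log2 change was 0.76 ± 0.61 (SE) for Sham against Control (limma, adjusted p = 0.666), 1.16 ± 0.61 for VSG against Control (adjusted p = 0.638) and 0.40 ± 0.61 for VSG against Sham (adjusted p = 0.982). The 95% interval of the last difference runs from -1.17 to 1.98. Without Sham mouse 1 the change of Sham against Control was -0.11, so its direction rests on that mouse.

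The Pparg gene (NCBIM37, chr6:115311239-115440419, plus strand) has 2 annotated start sites. Transcripts from the upstream start encode the 475-residue receptor PPARγ1, and those from the downstream start encode PPARγ2, with 505 residues, the form typical of adipocytes. The RefSeq transcript of PPARγ1, NM_001127330, was the only Pparg transcript above 0 in every mouse, at 1.15 and 0.93 FPKM in Control, 1.19 and 2.58 in Sham and 2.14 and 1.79 in VSG mice. The PPARγ2 transcript, NM_011146, was at 0.621 and 1.37 FPKM in Control mice, at 3.97 and 0 in Sham mice and at 4.6 and 2.67 in VSG mice. It was therefore above both Control mice in 3 of the 4 mice on the high-fat diet, and listed at 0 in the fourth. Of the remaining transcripts, NM_001308352 was above 0 in the Control mice only (0.565 and 1.2 FPKM), and NM_001308354 in Sham mouse 1 (5.91) and VSG mouse 2 (4.27) only. Both were listed at 0 in Sham mouse 2 and in VSG mouse 1, and such values can be failed estimates. In Sham mouse 2 all of the Pparg estimate, 100.0%, was put on NM_001127330. These transcripts share most of their exons, so that the split between them depends on how the estimation assigned shared reads.

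**Figure D1:**
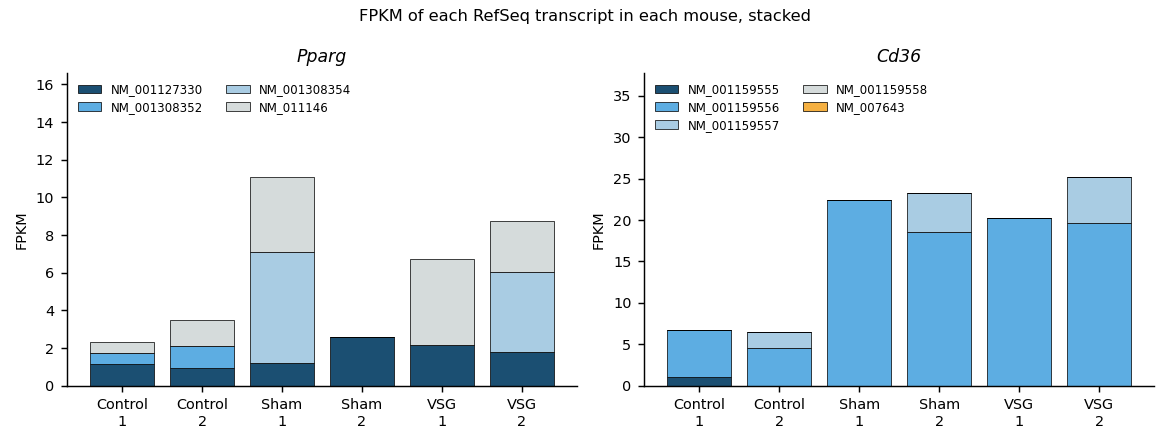
Stacked FPKM of each RefSeq transcript of Pparg (left) and Cd36 (right) in each of the 6 mice; transcripts with no visible bar were listed at 0. The Pparg total is carried by different transcripts in different mice, whereas NM_001159556 holds at least 69.6% of Cd36 in every mouse.

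Cd36, which takes up long-chain fatty acids at the cell surface, had the smallest p-value of the 10 genes in both comparisons with Control. It was at 6.73 and 6.48 FPKM in Control mice, 22.5 and 23.3 in Sham mice and 20.3 and 25.2 in VSG mice. All 4 mice on the high-fat diet lay above both Control mice, and the mice of a group differed by 1.04-fold in Control and Sham and by 1.24-fold in VSG. The group means were 6.61 ± 0.176 (SD, n = 2), 22.9 ± 0.605 and 22.7 ± 3.43 FPKM, a ratio of 3.46 for Sham over Control and 3.44 for VSG over Control. The log2 change was 1.65 ± 0.21 (SE) for Sham against Control, with a 95% interval of 1.12 to 2.18 and an unadjusted p of 5.0e-04 in limma, the rank of 40 among 9869 genes. After adjustment it missed the FDR of 10%, at 0.121, and it passed, at 0.0958, when genes were not filtered on FPKM. For VSG against Control the change was 1.63 ± 0.21 (adjusted p = 0.134). For VSG against Sham it was -0.02 ± 0.21, with an interval of -0.55 to 0.52. Of the 5 transcripts of Cd36, NM_001159556 held 69.6% to 100.0% of the total in every mouse, and 2 were listed at 0 throughout.

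Fabp4, the fatty acid binding protein of adipocytes and macrophages, stood at 13.1 and 12.8 FPKM in Control mice, 26.3 and 67.3 in Sham mice and 54.6 and 15.8 in VSG mice. Every mouse on the high-fat diet was above both Control mice, but the 2 Sham mice differed by 2.56-fold and the 2 VSG mice by 3.46-fold. The change was 1.63 ± 0.71 (SE) for Sham against Control (limma, adjusted p = 0.493), 1.13 ± 0.71 for VSG against Control (adjusted p = 0.681) and -0.50 ± 0.71 for VSG against Sham (adjusted p = 0.979). The sizes rested on single mice, since the change was 0.97 for Sham against Control without Sham mouse 2 and 0.27 for VSG against Control without VSG mouse 1.

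Cidea, a protein of brown and white fat that enlarges lipid droplets, was close to the lower limit of the table in Control mice, at 0.0367 and 0.0441 FPKM. The ratio of these values, 0.833, equals the ratio of the depths of the 2 libraries, so the same small number of reads lies behind both, and no fold against them is given. It was at 12.9 and 5.3 FPKM in Sham mice and at 24.7 and 4.11 in VSG mice. The lowest of the 4 mice on the high-fat diet was thus at 4.11 FPKM, a level that Cidec has in Control mice, where Cidea was all but undetected. The log2 change was 3.17 ± 0.85 (SE) for Sham against Control (limma, adjusted p = 0.353) and 3.46 ± 0.85 for VSG against Control (adjusted p = 0.366), the highest of the 10 genes in both comparisons. Cidea was tested only because of its level in Sham and VSG mice, and without a filter on FPKM the adjusted p was 0.374 and 0.423. With Control near 0 the size is set by the pseudocount, as it was 5.90 and 6.19 with a pseudocount of 0.1 and 1.43 and 1.71 with a pseudocount of 5. Without VSG mouse 1 the change of VSG against Control was 2.30. The VSG mice differed from each other by 6.01-fold, and the change of VSG against Sham, 0.29 ± 0.85, had an interval of -1.88 to 2.47.

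Cidec, the related protein that fuses droplets into large ones, was at 5.01 and 3.01 FPKM in Control mice, 10 and 18.5 in Sham mice and 27.4 and 6.29 in VSG mice. No Control mouse reached the lowest of the other mice. The change was 1.58 ± 0.72 (SE) for Sham against Control (limma, adjusted p = 0.513), 1.55 ± 0.72 for VSG against Control (adjusted p = 0.594) and -0.03 ± 0.72 for VSG against Sham (adjusted p = 0.998). The change of VSG against Control was 0.57 when VSG mouse 1 was left out and 2.53 when VSG mouse 2 was. Cidea, Cidec and Fabp4 were all higher in VSG mouse 1 than in VSG mouse 2, whereas Pparg, Cd36 and Plin2 were higher in VSG mouse 2. The 2 VSG mice thus did not differ in the same direction over these genes, and the cause was not tested.

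The droplet coat genes did not separate the groups. Plin2, the main perilipin of liver and the most abundant of the 3 coat genes, was at 302.9 and 92.8 FPKM in Control mice, 147.9 and 369.3 in Sham mice and 164.6 and 243.1 in VSG mice. The 2 Control mice spanned most of this range, and the change of Sham against Control was 0.48 ± 0.73 (SE; limma, adjusted p = 0.831). Without Control mouse 2 it was -0.37. Plin5, the perilipin of tissues that burn fat, was at 50.6 and 0 FPKM in Control mice, 23 and 24.5 in Sham mice and 38.6 and 15.5 in VSG mice. Its fitted change of 1.79 ± 1.85 for Sham against Control rests on the Control mouse listed at 0, and was -1.06 without it. Plin4, a perilipin of fat cells and muscle, was listed at 0 in 1 mouse of each group and at 4.06, 6.8 and 4.19 FPKM in the others. It overlaps Hdgfrp2 on the opposite strand, and whether reads were counted by strand was not given in the sources used here. G0s2 was at 221.6 and 308.9 FPKM in Control mice, 326.7 and 195.6 in Sham mice and 364.8 and 276 in VSG mice. Its changes lay between -0.05 and 0.33, each with an SE of 0.37.

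Mogat1, which makes diacylglycerol from monoacylglycerol, was at 0.598 and 0.422 FPKM in Control mice, 5.99 and 1.17 in Sham mice, and listed at 0 in both VSG mice. Both Sham mice lay above both Control mice, although they differed from each other by 5.11-fold. The log2 change of Sham against Control was 1.37 ± 0.58 (SE). Mogat1 entered the test through the Sham mice only, the group in which it was high, and the 2 VSG values of 0 can be failed estimates, so no p and no change from these VSG values is given. It was not called in any comparison. Mogat1 overlaps BC035947 on the opposite strand, and Cidea overlaps the non-coding gene B430212C06Rik likewise, so reads of these genes may not have been kept apart.

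**Figure D2:**
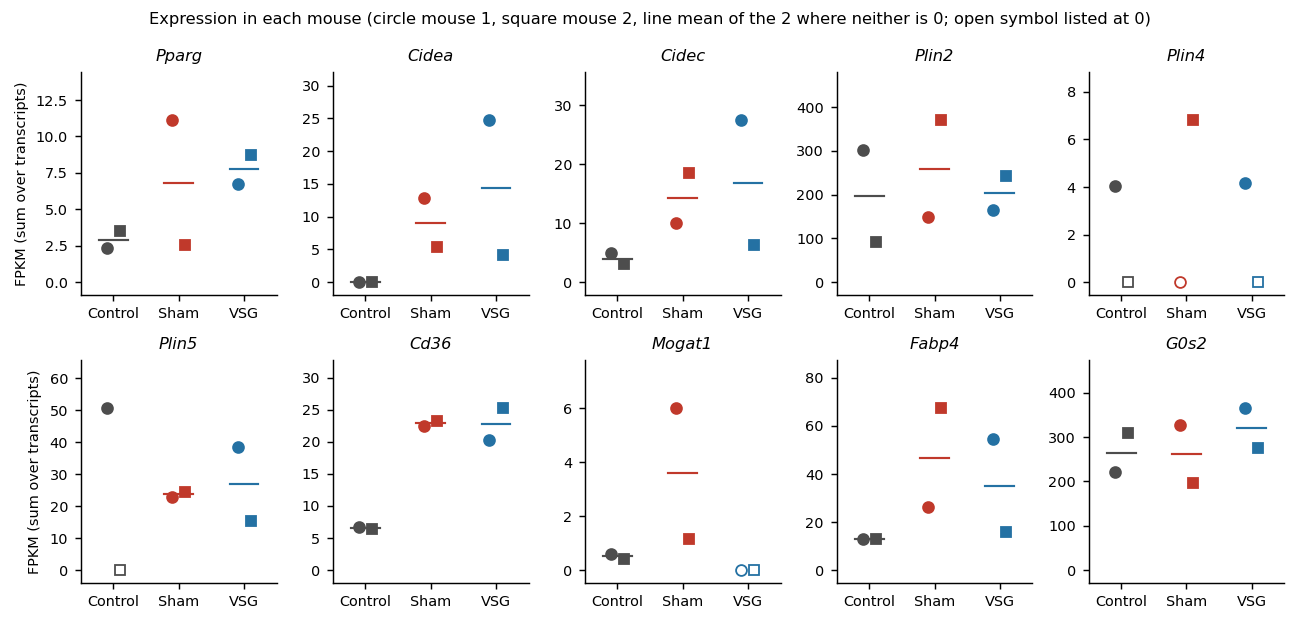
FPKM of each of the 10 genes, summed over transcripts, in each mouse (circle, mouse 1; square, mouse 2; open symbols, listed at 0; lines, mean of 2 mice where neither is 0). Cidea, Cidec, Cd36 and Fabp4 have all 4 Sham and VSG mice above both Control mice, while Plin2, Plin4, Plin5 and G0s2 overlap between groups.

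Taken by comparison, 0 of the 10 genes were called at an FDR of 10% for Sham against Control, where 28 of 9869 genes were (0.284%, 9 higher and 19 lower in Sham). At an unadjusted p under 0.05, limma gave 1076 genes and 2 of the 10, Cd36 and Cidea, the latter tested only through Sham and VSG mice. Both Sham mice were above both Control mice for 5 of the 10 (Cidea, Cidec, Cd36, Mogat1 and Fabp4), against 25.4% of all genes tested. None of the 10 had both below, an arrangement of 2018 of the 9869 genes. The median change of the 10 genes was 1.47, against 0.04 over all genes. Mogat1 passed the filter only through Sham mice and Cidea only through Sham and VSG mice. Their place above Control was thus partly set by the filter, and both enter this count and this median. Leaving out 1 mouse in turn gave a count between 5 and 7, with a background between 25.4% and 46.7%.

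For VSG against Sham, 0 of the 10 genes were called, where 5 of 9869 genes were (0.0507%), and at an unadjusted p under 0.05 limma gave 479 genes and 1 of the 10, Mogat1, for which the comparison cannot be read because of its 2 values of 0. No member had both VSG mice above both Sham mice, an arrangement of 18.5% of genes. Mogat1, through its values of 0, had both below, an arrangement of 965 of the 9869 genes. The median change of the 10, with Mogat1 and its values of 0 included, was -0.02, against 0.08 over all genes. Leaving out VSG mouse 1 turned it to -0.73 and leaving out VSG mouse 2 to 0.45.

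For VSG against Control, 0 of the 10 were called, where 28 genes (0.284%) were, and 2 of the 10 (Cidea and Cd36) and 943 genes had an unadjusted p under 0.05 in limma. Both VSG mice were above both Control mice for 5 of the 10 (Pparg, Cidea, Cidec, Cd36 and Fabp4), against 33.7% of genes, and the median change was 1.15, against 0.13. Cidea, in this count and this median, passed the filter only through Sham and VSG mice. Mogat1, listed at 0 in both VSG mice, is in this median. It had both VSG mice below both Control mice, an arrangement of 1461 of the 9869 genes. Without VSG mouse 1 the count of members above Control was again 5, but 52.1% of all genes were then above Control. The median change was 0.55, against 0.16. Over the 6 mice left out in turn the count was between 5 and 7 and the background between 33.7% and 52.1%. Scaling the libraries to equal medians set that median of all genes to 0.00 and left the median of the 10 at 1.03. The 2 comparisons with Control share the Control mice and are not independent. At the level of transcripts, 0 of the 14 member transcripts tested were called in any comparison, where 40, 9 and 25 of 11511 were.

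**Figure D3:**
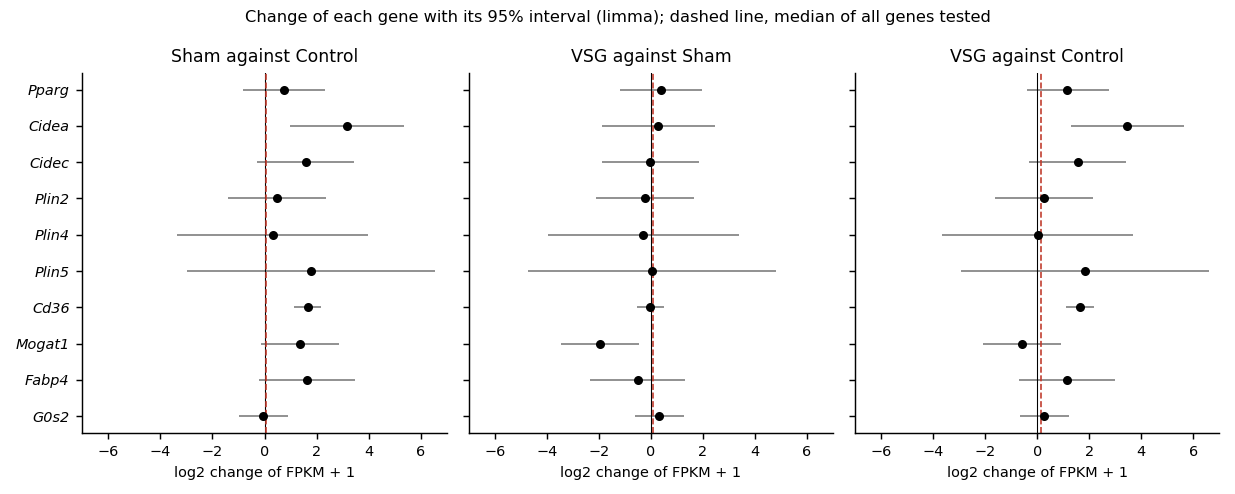
Change of each gene on the log2(FPKM + 1) scale with its 95% interval from limma, in the 3 comparisons; the dashed line is the median of all genes tested. The intervals of Cd36 and Cidea lie above 0 in both comparisons with Control, the points of Mogat1 for VSG rest on values listed at 0, and the intervals of Plin4 and Plin5 are the widest.

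Other genes of the same pathways were read from 6 lists. Of 10 further lipid droplet coat and size genes, 9 were tested and 0 called in each comparison, with a median change of 0.53 for Sham against Control. The genes with the smallest p-values there were Fitm2, which partitions triglyceride into droplets, Bscl2 (seipin), which shapes young droplets, and the perilipin Plin3. Fitm2 was at 17.4 and 29.7 FPKM in Control mice and at 5.99 and 13.9 in Sham mice (log2 change -1.22, limma, adjusted p = 0.439). Bscl2 was at 21.2 and 17.1 in Control, 45.2 and 25.4 in Sham and 44.8 and 35.5 in VSG mice. Plin3 was at 17.4 and 21.7 in Control and 22.4 and 36.2 in Sham mice.

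Of 10 genes of lipolysis, 9 were tested and 0 called. Pnpla2, the lipase that G0s2 inhibits, was at 51.3 and 51.5 FPKM in Control mice, 26.6 and 26.7 in Sham mice and 25.7 and 28.8 in VSG mice. All 4 mice on the high-fat diet were thus near 1 level, below both Control mice, with a log2 change of -0.92 for Sham against Control (limma, unadjusted p = 0.00447, adjusted p = 0.264). The carboxylesterase Ces1d ranged from 20.7 to 857 FPKM over the Sham and VSG mice, and Lipe, hormone-sensitive lipase, from 6.64 to 11.5.

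Of 12 genes of triglyceride assembly, 10 were tested and 0 were called. For Sham against Control 4 had an unadjusted p under 0.05 in limma, as did 1076 of all 9869 genes. Lpin1, a phosphatidate phosphatase that also acts as a coactivator of fatty acid oxidation, was at 91.9 and 129 FPKM in Control mice, 6.8 and 10.3 in Sham mice and 13.4 and 5.95 in VSG mice. Its log2 change was -3.55 (limma, adjusted p = 0.121). Dgat1, which completes triglyceride, was at 9.13 and 10.7 in Control, 4.14 and 4.58 in Sham and 8.08 and 9.45 in VSG mice, so that the Sham mice lay below the other 4. Its change was -1.02 for Sham against Control (adjusted p = 0.278) and 0.86 for VSG against Sham (adjusted p = 0.831). Mttp, also among the 4, had a log2 change of -0.52 for Sham against Control. Lpin3, the remaining one, went the other way, with 0.88, and was at most 1.36 FPKM in any mouse. It passed the filter only through Sham and VSG mice, so its place above Control was partly set by the filter.

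Of 14 genes of fatty acid uptake and binding, 12 were tested and 0 called. Slc27a5, a fatty acid and bile acid CoA ligase, was at 342 and 314 FPKM in Control mice and 121 and 175 in Sham mice (log2 change -1.16, limma, adjusted p = 0.388). The transporter Slc27a1 ranged from 0.644 to 4.06 FPKM over the 6 mice, and Fabp2, the intestinal fatty acid binding protein, from 40.1 to 148.

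Of 21 partners and coregulators of PPARγ, 18 were tested and 0 called. The corepressor Ncor1 was at 7.83 and 6.55 FPKM in Control mice and 1.45 and 4.25 in Sham mice (log2 change -1.19, limma, adjusted p = 0.418). Ppara, the related receptor that drives fatty acid oxidation, was at 7.3 and 30.5 in Control, 41.9 and 36.2 in Sham and 9.31 and 19 in VSG mice. Ppard ranged from 0.582 to 1.88.

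Of 17 genes known as PPARγ targets in adipose tissue, 13 were tested and 1 was called. Ucp2, a mitochondrial carrier, was at 10 and 8.42 FPKM in Control mice, 42.9 and 50.9 in Sham mice and 36.9 and 32.1 in VSG mice. It rose in Sham against Control by a log2 change of 2.23 (limma, adjusted p = 0.0708). The change of VSG against Control was 1.79 (adjusted p = 0.124). The median change of that list was 0.07, with 6 genes higher and 5 lower in both Sham mice, against 2505 and 2018 of all 9869 genes. The list as a whole was thus spread to either side.

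Markers of other cells were read beside these results. Of 10 adipocyte markers, Adipoq, Lep, Plin1, Retn, Slc7a10 and Trarg1 were under 1 FPKM in every mouse, with Lep and Slc7a10 listed at 0 in all 6. Cfd (adipsin), of the same list, was at 0.685 and 0.823 FPKM in Control mice, 9.74 and 0.251 in Sham mice and 20.5 and 4.62 in VSG mice. It was higher in mouse 1 of the Sham and of the VSG group, as Cidea was, whereas Adrb3 was higher in mouse 2 of both. Lipe and Car3 were higher in mouse 1 of the Sham group and in mouse 2 of the VSG group. Cidec and Fabp4 were higher in mouse 2 of the Sham group and in mouse 1 of the VSG group. The part of fat cells in the levels of Cidea, Cidec and Fabp4 was not tested. The summed level of that list ran from 351.7 to 655.4 FPKM in Control, 18.8 to 1127 in Sham and 1019 to 1200 in VSG mice. Car3, which liver also makes, held 96.8% to 98.8% of that sum in 5 of the mice and 34.2% in Sham mouse 2, where it was at 6.43 FPKM. Of 15 macrophage and Kupffer cell markers, 14 were in the table, 11 were tested and 7 had both Sham mice above both Control mice, against 25.4% of all genes tested. Adgre1 and Trem2, among the 7, passed the filter only through Sham and VSG mice. The place of these 2 above Control was thus partly set by the filter. The summed level of the 14 markers was 22.2 to 27.2 FPKM in Control, 68.6 to 111.3 in Sham and 63.8 to 214 in VSG mice. Cd36 and Fabp4 are also made by macrophages. The part of macrophages in the levels of Cd36 and Fabp4 was not tested. Endothelial cells make Cd36 as well. Of 12 endothelial markers, 9 were tested and 7 had both Sham mice below both Control mice, an arrangement of 2018 of all 9869 genes. Their sums were 30.7 to 63.5 FPKM in Control, 8.7 to 10.2 in Sham and 35.8 to 42.6 in VSG mice. Eng and Oit3, of that list, were listed at 0 in both Sham mice, and such values can be failed estimates. Cdh5, Eng, Oit3 and Pecam1 reached 1 FPKM only in Control and VSG mice, so their place below Control was partly set by the filter. The part of endothelial cells was not tested either. The 11 stellate cell markers summed to 53.4 to 54.5, 22.7 to 38.4 and 57.2 to 69.5 FPKM. Of the hepatocyte markers, 7 of 10 were analysed here, all were tested, and their sum was 15897 to 22401 FPKM over the 6 mice. The tyrosine-degrading enzyme Tat was the marker of that list called for Sham against Control, with a log2 change of -2.84 (limma, adjusted p = 0.0445). Tat was at 1376 and 1477 FPKM in Control, 210.2 and 187.6 in Sham and 232.6 and 282.6 in VSG mice. For VSG against Control, 1 marker of the list was called as well, lower in VSG mice.

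Accessible chromatin at the 10 genes was read from 1 list of FAIRE peaks per group, each made from both mice of that group, so that no peak has a replicate error. There were 42204 Control, 52881 Sham and 44539 VSG peaks, and the depth behind them is unknown. Merged where they overlapped, they gave 59249 union peaks, of which the Control list held 68.8%, the Sham list 87.7% and the VSG list 72.5%. Within 10 kb of the 10 genes lay 53 union peaks, 38 of them (71.7%) in the Control, 47 (88.7%) in the Sham and 41 (77.4%) in the VSG list. Among peaks of at least 250 bp there were 27, 31 and 25, so that the order of Control and VSG turned. Of the 53, 30 (56.6%) were in all 3 lists, as were 55.2% of all union peaks. A further 8 (15.1%) were in the Sham and VSG lists without Control, against 10.3% of all, and 5 (9.43%) in the Sham list only, against 17.1%.

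**Figure D4:**
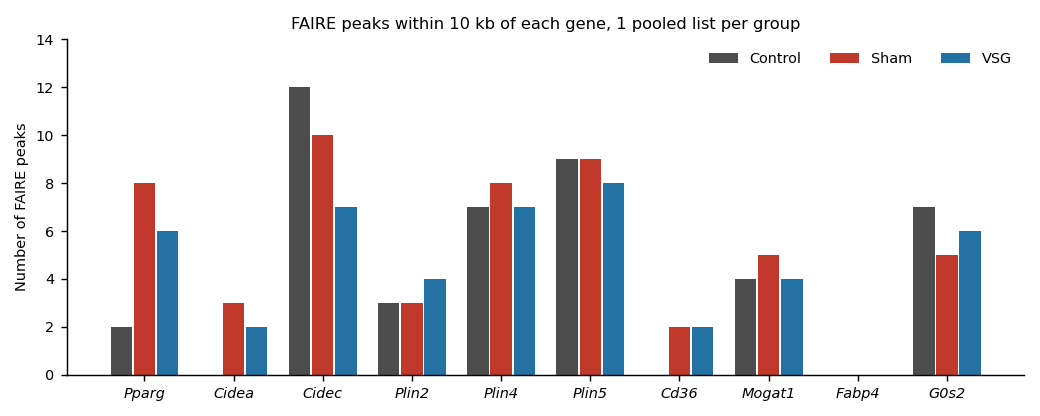
Number of FAIRE peaks within 10 kb of each of the 10 genes in the pooled list of each group. Cidea and Cd36 have none in Control, Pparg has 2 Control, 8 Sham and 6 VSG peaks, and Fabp4 has none in any list.

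A promoter peak, within 1 kb of an annotated transcription start site, was found for 6 of the 10 genes in the Control list and for 8 in each of the Sham and VSG lists, against 90.5%, 90.2% and 91.4% of 8413 tested genes. Pparg and Cd36 were the genes with one in the Sham and VSG lists and none in Control, which 0.963% of tested genes showed. Cidea and Cd36 had no peak within 10 kb in the Control list but did in the Sham and VSG lists, as did 0.891% of tested genes. Fabp4 had no peak in any list, as for 226 of 8413 tested genes (2.69%).

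At Cd36 (NCBIM37, chr5:17287508-17394777, minus strand) both peaks of the locus were in the Sham and VSG lists and not in the Control list. The first, chr5:17355505-17355759, spans the start of transcripts Cd36-202 and Cd36-204, an internal start of the gene. Its signal was at percentile 68 of the Sham list and 52.6 of the VSG list. The second, chr5:17368971-17369205, is intronic, at percentiles 57 and 36.8. Control thus had no peak at Cd36 and the lowest FPKM of the groups. The Control list was also the shortest, and 10.3% of all union peaks were in the Sham and VSG lists without Control. A link between these peaks and the FPKM was not tested. The part of the first peak upstream of the start, chr5:17355611-17355759, is shown here on the strand of the gene because it is the accessible promoter that the Control list lacks, with no capitals as it holds no match of the kind described below.
Cd36 promoter: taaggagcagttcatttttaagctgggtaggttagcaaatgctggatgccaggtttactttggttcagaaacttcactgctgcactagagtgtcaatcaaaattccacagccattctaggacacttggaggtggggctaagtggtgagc

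At Pparg, 9 union peaks were found, of which 2 were in the Control, 8 in the Sham and 6 in the VSG list. Beside the PPARγ2 start lay chr6:115371752-115371987, 97 bp upstream, in the Sham list (percentile 38.8) and low in the VSG list (percentile 4.96), and chr6:115372100-115372301, 16 bp downstream, in the Sham list only (percentile 23.1). The PPARγ1 start had a peak in the VSG list only, chr6:115310772-115310922, at percentile 5.29. The peak with the highest rank, chr6:115412915-115413385, covers an exon and was in all lists, at percentiles 84.2, 96.4 and 82.9 for Control, Sham and VSG mice. In the introns further downstream, chr6:115426538-115426766 and chr6:115430342-115430707 were in the Sham (percentiles 54.1 and 67.4) and VSG (40.3 and 55.3) lists without Control, and chr6:115420323-115420532 in the Sham list only. The peak upstream of the PPARγ2 start is printed on the plus strand, as the promoter of the isoform named above.
Pparg PPARγ2 promoter: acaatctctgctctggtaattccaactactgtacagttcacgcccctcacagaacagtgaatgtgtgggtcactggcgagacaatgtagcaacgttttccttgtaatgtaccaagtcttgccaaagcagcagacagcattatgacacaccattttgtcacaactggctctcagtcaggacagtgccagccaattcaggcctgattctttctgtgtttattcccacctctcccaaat

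At Cidea (chr18:67503218-67527448, plus strand) no list had a peak at the promoter. An intronic peak (chr18:67510412-67510674) and a downstream one (chr18:67529364-67529594) were in the Sham (percentiles 39.9 and 46.8) and VSG (28 and 55.8) lists, and a weak intronic one (percentile 2.03) in the Sham list only. Cidec, Plin2, Plin4, Plin5 and G0s2 had promoter peaks in all 3 lists. Cidec had more peaks in Control (12) than in Sham (10) or VSG mice (7), although its FPKM was lowest in Control. At Cidec the number of peaks thus did not follow the FPKM.

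At Mogat1 (chr1:78507566-78534748, plus strand) the peak over the first start sites, chr1:78507518-78507783, was in all 3 lists but at percentile 18.1 of the Control, 85.3 of the Sham and 66.2 of the VSG list. It was singled out after its values were seen, as the one of the 30 shared peaks at these genes with the highest difference in rank between Sham and Control, 67.2 percentile points. The lists differ in length and each is pooled, so this difference has no error and is a description. Ranked within the 32716 peaks that all lists share, it stood at percentiles 9.14, 76.5 and 55. Of the 30 peaks, 15 ranked higher in the Sham than in the Control list, against 59.4% of all shared peaks, and 14 against 46.9% when ranks were taken within the shared peaks.

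**Figure D5:**
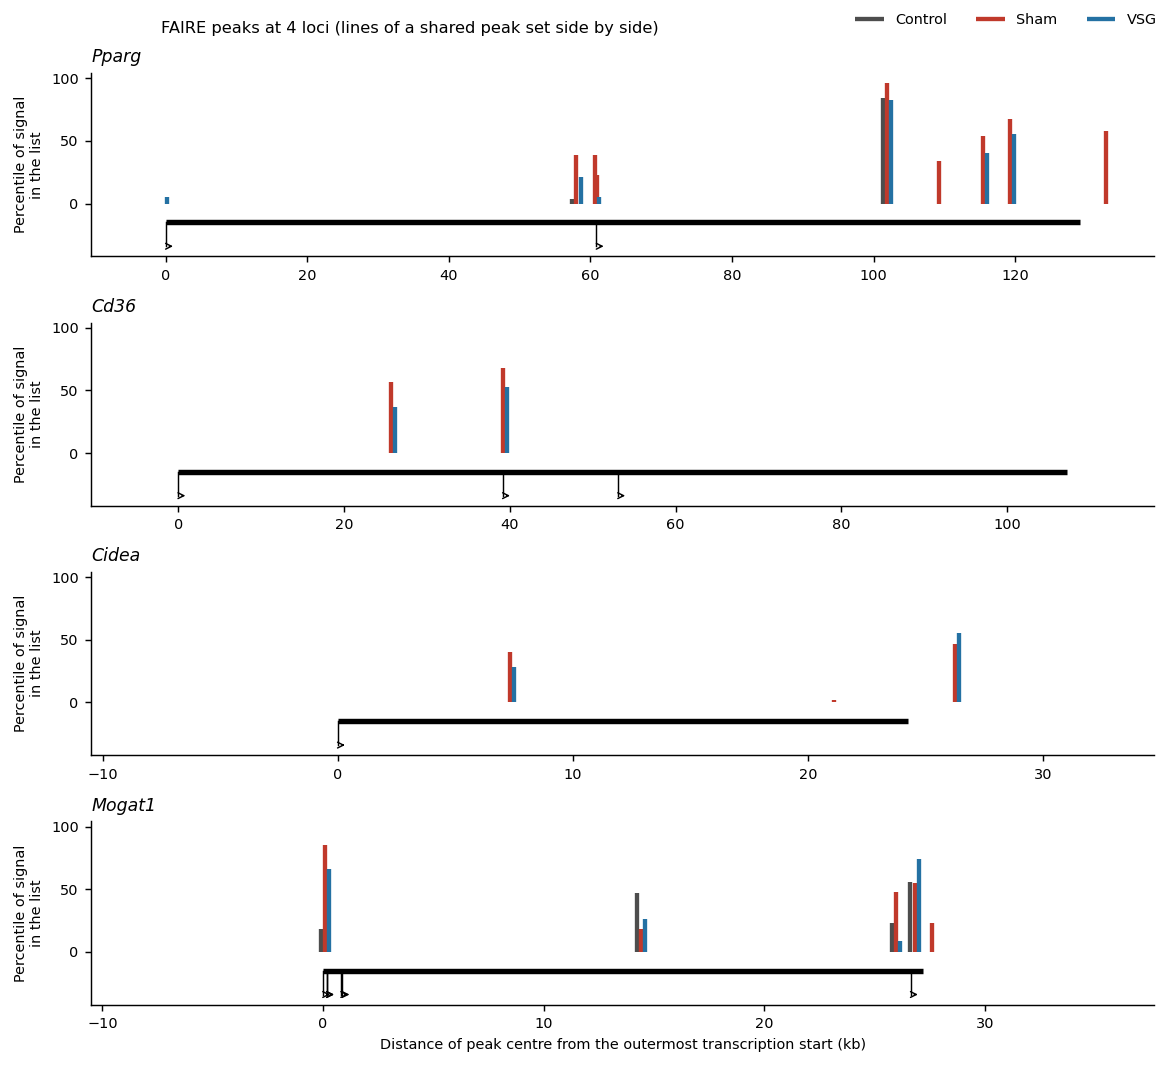
FAIRE peaks at Pparg, Cd36, Cidea and Mogat1, placed by distance from the outermost start site (kb); height is the percentile of the peak's signal within the pooled list of its group, the bar is the gene and arrows are annotated start sites. Cd36 and Cidea show no Control line, and the Mogat1 line at the start is at 18.1 in Control and 85.3 in Sham mice.

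PPARγ and RXR bind a repeat known as DR1, 2 copies of AGGTCA with 1 base between them. It was searched for on both strands in the 300 bp around the centre of each union peak, with up to 2 mismatches in the 12 fixed positions. Of the 53 peaks at the 10 genes, 9 (17%) held such a match, against 9.91% of all 59249. None was exact, as for all but 0.201% of peaks, and 1 had a single mismatch, against 2.07%. A match is a description of the letters and does not show binding. None of the 9 Pparg peaks, 2 Cd36 peaks or 3 Cidea peaks held one. Searched over whole peaks instead, 11 of the 53 (20.8%) held a match, against 13.1% of all. They include a peak over a Plin2 start and one over a Cidec exon, whose matches lie outside the window and are not printed. The matches in the windows are printed because they are the letters there most like the element that PPARγ reads. They are written in the direction of the repeat, capitals mark bases equal to AGGTCA, and the base at position 7 is the spacer.
Cidec intron, chr6:113380354-113380366 (minus strand): cGGTCAgAGGgCA
Cidec intron, chr6:113380950-113380962 (plus strand): AaGTCAcAtGTCA
Plin4 downstream, chr17:56238829-56238841 (plus strand): AGGcCAgAGGgCA
Plin4 upstream, Plin5 downstream, chr17:56250688-56250700 (plus strand): tGGTgAgAGGTCA
Plin5 start, chr17:56256489-56256501 (plus strand): AGtTCAaAtGTCA
Plin5 upstream, chr17:56259016-56259028 (minus strand): AGGTCAgAGGgCt
Plin5 upstream, chr17:56263214-56263226 (plus strand): AGGTaAaAGGTCA
Mogat1 start, chr1:78507584-78507596 (plus strand): AGGTaAaAaGTCA
G0s2 upstream, chr1:195100842-195100854 (plus strand): gGGTCcaAGGTCA
The Plin5 site upstream of the gene had the fewest mismatches, and its peak was in all lists at percentiles 14.9, 2.24 and 21.5 for Control, Sham and VSG mice. The Mogat1 site lies inside the peak over its first start sites described above. Both Cidec sites lie in intronic peaks that were in the Control and Sham lists but not in the VSG list. Plin4 and Plin5 are neighbours, and 3 of the 9 matches lie in peaks within 10 kb of both.

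The authors' lists of sites whose accessibility differed between Sham and VSG mice, or went back after VSG, held no peak at the 10 genes. The nearest such site lay 1539318 bp from Fabp4.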

How the data were processed

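RNA-seq and FAIRE-seq were run on 2 livers per group. The authors aligned RNA reads to mm9 with TopHat2 and deposited FPKM from Cufflinks, 1 value per RefSeq transcript and mouse. Libraries were poly(A)-enriched per the labels, while the study's methods describe the removal of ribosomal RNA. Each deposited FAIRE peak carries an F-seq signal, for which the authors combined the 2 mice of a group through IDR; here it served only as a rank within its list. Tables of the authors' own comparisons hold fold changes and p-values from DESeq2 on HTSeq counts and were not used. No column of values per sample was left out otherwise. Depth is known only as the ratio between libraries.

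The 10 genes, the 6 pathway lists and the 5 marker lists were chosen with earlier results of these data known, and alternatives are marked in the closing section where they were added after the data were seen. Identifiers were matched to gene symbols through RefSeq (34046 of 34933), and FPKM were summed per gene. The 9869 genes that reached 1 FPKM in 2 or more mice were analysed as log2(FPKM + 1) in limma 3.58.1 (R 4.3.3), in 1 model of the 3 groups with a variance trend and BH adjustment. The smallest 2-sided p of an exact permutation test at this size is 0.333, so none was run. The labels give no separate litters or cages, so p-values measure the spread between these mice. The same replicate numbers occur in all groups but the labels do not tie them to a shared batch, so the main fit has no block. In each pathway list, genes called in any comparison are named, otherwise the 3 with the smallest p for Sham against Control.

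Peaks of the 3 lists were merged where they overlapped by at least 1 bp, assigned to a gene within 10 kb of its span, and placed on the NCBIM37 genome with GENCODE annotation of the same build. Scripts were tested on simulated data, and used Python 3.11.15, numpy 2.4.6, pandas 2.3.3 and matplotlib 3.10.9.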

Additional observations from a re-analysis of the deposited data

How the results depend on the processing

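The count of genes called depended on the processing, while 0 of the 10 members were called under every alternative but 1. Without a filter on FPKM, 64 genes were called for Sham against Control, Cd36 being the 1 member among them. With an FPKM of at least 5 in 2 mice, 14, 2 and 10 genes were called for Sham against Control, VSG against Sham and VSG against Control. For VSG against Sham, a pseudocount of 0.1 gave 8 genes and a pseudocount of 5 gave 1, and with only the compared groups in the fit 9 genes were called, with 44 for VSG against Control. With the replicate block, 9, 0 and 10 genes were called and 0 members. Deviations of same-numbered mice correlated over genes at 0.118, 0.039 and 0.064. With 1 pair of differences per comparison, these values cannot tell whether same-numbered mice shared a batch. Leaving out 1 mouse in turn gave 0 to 168 genes for Sham against Control (168 without Sham mouse 2), 0 to 76 for VSG against Sham and 0 to 34 for VSG against Control.

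The direction of the members changed where the change was small or rested on 1 mouse. For VSG against Sham, Cidec turned to 0.03 with a pseudocount of 5 and Plin5 to -0.07 with equal medians. For VSG against Control, Plin4 turned to -0.10 with equal medians and to -0.03 with equal totals. Leaving out 1 mouse, the changes for Sham against Control ran from -0.11 to 1.64 for Pparg, -0.37 to 1.32 for Plin2, -1.17 to 1.79 for Plin4, -1.06 to 4.63 for Plin5 and -0.42 to 0.32 for G0s2. For VSG against Sham they ran from -0.47 to 1.28 for Pparg, -0.87 to 1.46 for Cidea, -1.01 to 0.96 for Cidec, -0.88 to 0.43 for Plin2, -1.77 to 1.19 for Plin4, -0.58 to 0.68 for Plin5, -0.16 to 0.13 for Cd36, -1.36 to 0.37 for Fabp4 and -0.04 to 0.70 for G0s2. For VSG against Control they ran from -0.60 to 1.10 for Plin2, -1.17 to 1.21 for Plin4 and -1.01 to 4.68 for Plin5. The cause was not tested. Cidea, Cidec, Cd36 and Fabp4 kept their direction against Control under all alternatives, but not their size: leaving out 1 mouse, the changes for VSG against Control ran from 2.30 to 4.63 for Cidea, 0.57 to 2.53 for Cidec, and it was 0.27 for Fabp4 without VSG mouse 1. Mogat1 was not tested without either Sham mouse, and its change for VSG against Sham, which rests on values of 0, ran from -4.80 with a pseudocount of 0.1 to -0.72 with a pseudocount of 5.

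The number of members above Control without overlap, with alternatives added after the data were seen, stayed at 5 with equal medians or totals and between 5 and 7 without 1 mouse, while the share of all genes rose to as much as 46.7% for Sham and 52.1% for VSG. Peaks at the 10 genes numbered 110 in the union within 50 kb (78, 101 and 87 in Control, Sham and VSG lists). Among peaks of at least 250 bp, 27 were in the Control, 31 in the Sham and 25 in the VSG list (37 in the union), and in the 50% of each list with the highest signal there were 31 in the union (18, 28 and 22). DR1 matches fell to 1 with up to 1 mismatch. With 2 mice a group and depth unknown, small differences cannot be seen.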

Other observations

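The 5 genes whose level over the 6 mice was most like that of Pparg were picked by rank alone. By Pearson's r of log2(FPKM + 1), with the 10 genes left out, the highest were Tcirg1, a subunit of the lysosomal proton pump (r = 0.997), Mrpl50 (0.993), Dctn2 (0.990), Pmm1 (0.987) and Naa10 (0.985). Tcirg1 was at 7.46 and 8.68 FPKM in Control mice, 15.4 and 7.42 in Sham mice and 11.4 and 13.6 in VSG mice. As for Pparg, Sham mouse 2 lay with the Control mice, which follows from choosing the gene by r. With 6 mice, 212 of 9858 genes had an r over 0.9, and these values are a description of shared libraries only.

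The order of the 2 mice of a group varied from gene to gene. Of the 10 genes, 7 were higher in Control mouse 1 than in Control mouse 2, 4 in Sham mouse 1 and 6 in VSG mouse 1. Pparg, Cidea and Mogat1 were each higher in Sham mouse 1, and Cidec, Plin2 and Fabp4 in Sham mouse 2.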
